A study of Rattus norvegicus with 6 samples.

Results

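Semaphorins, and the plexins and neuropilins that receive them, were followed in rat cortical neurons left untreated or given the complement protein C1q. The group was defined by name as 31 genes, 20 semaphorins, 9 plexins and 2 neuropilins. A gene was included when a probe set, the group of array probes that reads one transcript, was annotated with that gene alone. This held for 23 of the 31 genes, among 14506 genes read on the array: 16 semaphorins, 5 plexins and both neuropilins. Sema3g, Sema4b, Sema4d, Sema6a, Plxna1, Plxna4, Plxnb1 and Plxnc1 were not analysed here. Sema4c had 2 such probe sets, of which the brighter one stands for the gene, and each other gene had 1.

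The neurons came from the cortex of Sprague-Dawley rat embryos of day 18 and had been cultured for 3 days in NB-N2 medium. Of the 6 one-colour Affymetrix arrays, 3 held RNA from untreated cultures and 3 held RNA from cultures exposed to C1q at 10 nM for 3 h. All cultures shared strain, age and medium, and C1q was the one difference that the labels give. The labels do not say whether the arrays of a group came from separate cultures or embryos, so the p-values describe only how these arrays scatter, and that scatter may be technical.

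Semaphorins are secreted or membrane-bound guidance proteins that share an extracellular sema domain. Plexins are their main receptors and act on the cytoskeleton through small GTPases, while neuropilins bind the secreted class 3 semaphorins and pass the signal on through plexins of class A. In the developing cortex the system steers axons, orients dendrites, guides migrating neurons and later limits synapse number.

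Values are the deposited intensities, in arbitrary units, whose summarisation is not given in the sources used here. Array medians lay between 147 and 155, and how far a signal stands above background cannot be read from them. Probe sets were tested when their mean lay among the brightest 60%, which corresponds to an intensity of 94.4. Because probes differ in how strongly they bind, intensities of different genes do not rank their mRNA amounts, and each gene is compared only with itself.

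All 9 neuronal markers, such as Map2 and Dcx, were above that intensity, as were the 5 excitatory and 8 inhibitory neuron markers matched. The list for microglia had 1 of 8 matched genes above it, that for endothelium 2 of 8, and that for mural and meningeal cells 5 of 8. Astrocyte markers had 8 of 9, oligodendrocyte lineage markers 6 of 7, and radial glia and dividing cell markers 7 of 8. Passing this brightness filter does not show that a marker's RNA was present. Summed intensities of the 8 inhibitory neuron markers ran from 15232 to 16114 on untreated and from 14929 to 15146 on C1q arrays, without overlap. For the 5 blood markers the sums ran from 2115 to 2395 and from 2412 to 2597, also without overlap. Within that list Hbb had means of 970 untreated and 1155 after C1q, and Hba-a3 895 and 1007. Alas2, Ppbp and Pf4 overlapped, at log2 fold changes of -0.019, 0.018 and -0.017, so the list did not move as a whole. The sums of every other marker list overlapped. Single genes without overlap were 1 of the 8 inhibitory neuron markers, Npy, and 2 of the 5 blood markers, against 4.96% of all tested genes. None of the 56 tested marker genes passed in limma, 2 of them, the globin genes Hbb and Hba-a3, had an unadjusted p under 0.05, and the part of these cells in the values below was not tested.

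After 3 h of C1q, none of the 21 tested semaphorin, plexin and neuropilin genes was called as changed. Fold changes, C1q over untreated, lay between 0.961 for Nrp1 and 1.09 for Sema3b, and 20 of the 21 differed from 1 by less than 0.05, as did 80.9% of the 9652 tested genes. The comparison used limma on log2(intensity + 16), with Benjamini-Hochberg adjustment over 17529 probe sets and a threshold of 0.05. It called 0% of these probe sets, of which 437 had an unadjusted p under 0.05, and every tested member had an adjusted p of 0.9999. No member had an unadjusted p that low, with 0.173 for Sema3b as the smallest, against 66 of the 9652 tested genes, or 0.684%. Evenly spread p-values would put a share of 0.05 under that threshold, so the p-values here may be too large. Fold changes carry 95% intervals from the same fit. For 20 of 21 members both ends lay within 1.2-fold, which held for 79.6% of tested genes, and the bound farthest from 1 was 1.26, for Sema3b. Of the 21 members 18 were among the brightest 40% of probe sets, and genes of like brightness were not compared. These shares therefore do not show that the members were more stable than other genes. In cultures of mixed cells, fewer cells of a type and less RNA per cell cannot be told apart.

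**Figure D1:**
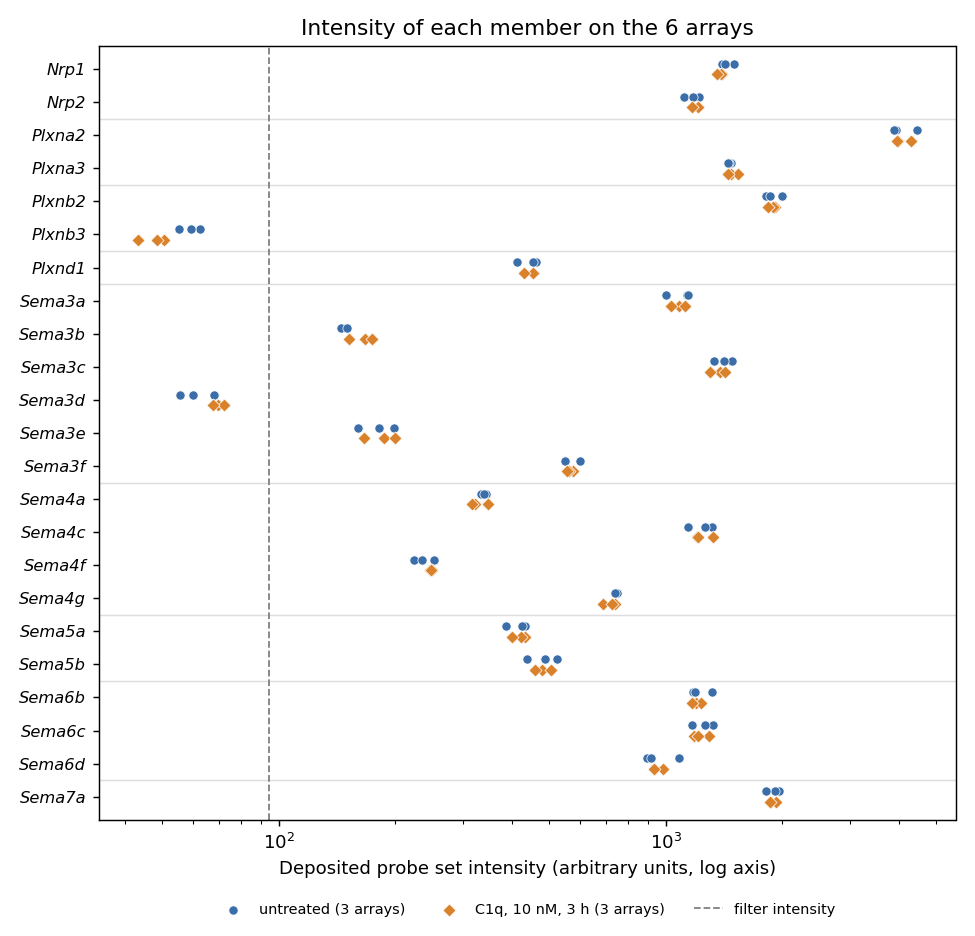
Deposited intensity of the 23 members (log axis, arbitrary units) on 3 untreated arrays (circles) and 3 C1q arrays (diamonds), with horizontal lines between classes and a dashed line at the filter intensity of 94.4. Plxnb3 and Sema3d lie left of the line, and of the other 21 genes the groups overlap in all but Sema3b and Sema4g.

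Among the receptors, both neuropilins were measured well above the filter. Nrp1, the neuropilin that binds Sema3a and also VEGF, read 1500.1, 1394 and 1423 without C1q and 1399.8, 1388 and 1357 with it, each in the order of arrays 1 to 3. The C1q values sat at the low end and overlapped the untreated ones through C1q array 1. The means were 1439 ± 54.9 and 1382 ± 21.9 (SD, n = 3 each), and the fold change was 0.961 (0.894 to 1.03). Nrp2, the neuropilin preferred by Sema3f, read 1220.0, 1111 and 1175 untreated and 1214, 1212 and 1166 after C1q. Its C1q values all lay inside the untreated range, at a fold change of 1.02 (0.948 to 1.11). The mean was thus lower for one neuropilin and higher for the other, and the difference between them was not tested.

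Of the class A plexins, which signal for neuropilins and also bind class 6 semaphorins directly, 2 were read. Plxna2 gave 4445, 3933 and 3896 on untreated arrays and 4306, 3987 and 3965 on C1q arrays. In each group array 1 stood above the other two, and the group means of 4091 ± 307 and 4086 ± 191 (SD, n = 3 each) were nearly equal. Plxna3, a partner of Nrp2 in Sema3f signalling, gave 1474, 1458 and 1452 untreated and 1474, 1536 and 1446 with C1q. This was the least variable member, with a residual SD of 0.032 on the log2 scale, and its fold change was 1.02 (0.948 to 1.09).

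Plxnb2, a receptor for class 4 semaphorins, read 1997, 1818 and 1858 untreated and 1916, 1889 and 1831 after C1q, at a fold change of 0.994 (0.923 to 1.07). Plxnd1, which binds Sema3e without a neuropilin, read 462, 412 and 454 and then 453, 453 and 431, at a fold change of 1.01 (0.909 to 1.11). The C1q values of both genes lay inside their untreated ranges. Plxnb3, a receptor described for Sema5a, was below the filter and was not tested in the main comparison. It read 62.5, 55.3 and 59.1 on untreated arrays and 43.2, 50.4 and 48.5 on C1q arrays. The groups did not overlap, and the log2 difference was -0.24, with an interval of -0.49 to 0.0035. C1q values lay wholly below in 4.42% of the tested probe sets, which do not include Plxnb3. Without a filter limma gave it an unadjusted p of 0.0528 and an adjusted p of 1. In limma fits of all probe sets under the other settings, the unadjusted p of Plxnb3 ran from 0.0111 with array weights to 0.17 without C1q array 1. Array weights lowered p-values broadly, with 130 tested probe sets called higher and 317 lower, against 0 in the main fit. Over the settings tried its log2 difference ran from -0.31 to -0.14, and at this intensity the share of background is unknown.

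The secreted class 3 semaphorins are the ligands that work through neuropilins, and 5 of the 6 matched genes were above the filter. Sema3a, which repels cortical axons and draws apical dendrites, read 1135, 999 and 1139.9 untreated and 1083, 1119 and 1032 after C1q. Untreated array 2 was the lowest of the 6, and all C1q values lay between the untreated ones, at a fold change of 0.989 (0.901 to 1.09). Sema3c, described as an attractant for cortical axons, read 1485, 1334 and 1417 and then 1383, 1425 and 1297. Its groups overlapped, with a fold change of 0.970 (0.891 to 1.06).

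Sema3b read 149, 145 and 150.4 on untreated arrays and 152, 167 and 174 on C1q arrays. The lowest C1q value lay just above the highest untreated one, so the groups did not overlap. The means were 148 ± 2.84 and 164 ± 11.2 (SD, n = 3 each), and the log2 fold change was 0.13, with an SE of 0.09 and an adjusted p of 0.9999 in limma. Its fold change of 1.09 had bounds of 0.955 and 1.26. The sign of Sema3b was the same in all 17 other settings tried, at log2 values of 0.091 to 0.18. That sameness was largely fixed in advance. Changes of filter, variance model or block leave the estimate as it is. Leaving out an array cannot turn the sign where the groups do not overlap. Sema3b was not called in any setting that tested it, which the brightest 40% did not.

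Sema3f, a ligand for Nrp2, had a mean of 565 in both groups, with untreated values of 549, 599 and 548 and C1q values of 575, 563 and 557. Sema3e, the ligand of Plxnd1, was the most variable tested member, with a residual SD of 0.133 log2. It read 199, 161 and 182 untreated and 187, 199 and 165 after C1q, so that the arrays of one group differed by more than the group means of 180.2 and 184. Sema3d was below the filter, at 68.0, 55.5 and 60.2 and then 69.6, 72.0 and 67.6. Its highest untreated value lay between the C1q values, and no test is given for it.

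Class 4 semaphorins span the membrane, and several bind class B plexins. Sema4c, a ligand of Plxnb2, read 1315, 1140.0 and 1264 untreated and 1203, 1322 and 1209 after C1q, at a fold change of 1.00 (0.914 to 1.10). Its dimmer probe set, at 199 ± 21.1 and 182 ± 13.7 (SD, n = 3 each), had a fold change of 0.921 (0.794 to 1.07). The 2 probe sets thus differed in sign, and neither was called. Sema4g read 749, 747 and 740.2 on untreated arrays and 687, 739 and 726 on C1q arrays. The highest C1q value was just below the lowest untreated one. The fold change was 0.963 (0.888 to 1.04).

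Sema4a read 343, 333 and 339 untreated and 348, 320.5 and 316 with C1q, and C1q array 1 exceeded all untreated values. Sema4f, which can bind the postsynaptic scaffold PSD-95, read 252, 223 and 235 and then 246, 248 and 248. Its C1q arrays were nearly identical and inside the untreated range. Groups that did not overlap were therefore 2 of 21 tested members, Sema3b and Sema4g, against 4.96% of all tested genes. By direction, C1q values lay wholly above in 1 member and in 119 of 9652 tested genes, and wholly below in 1 member and in 360 of these genes. Over tested probe sets, many of which name no gene, the shares were 1.30% and 4.42%. Plxnb3, below the filter and also without overlap, is outside these counts. The count of 2 exceeds the share over all genes by about 1 gene, too little to set the members apart.

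Class 5 semaphorins carry thrombospondin repeats beside the sema domain. Sema5a read 432, 385 and 424 untreated and 433, 422 and 400.3 after C1q, at a fold change of 1.01 (0.910 to 1.12). Sema5b read 523, 488 and 439 and then 479, 505 and 459, at 0.998 (0.891 to 1.12). Both sets of values overlapped throughout.

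The 3 class 6 genes encode transmembrane proteins that bind class A plexins, and each had a lower mean after C1q without passing. Sema6b read 1318, 1176 and 1188 untreated and 1196, 1231 and 1167 with C1q, at a fold change of 0.977 (0.898 to 1.06). Sema6c read 1325, 1259.9 and 1170.0 and then 1184, 1289 and 1213, at 0.983 (0.900 to 1.07). In Sema6b and Sema6c, untreated array 1 was the highest of the 6. Sema6d read 1084, 892 and 914 and then 931, 982 and 933, at 0.988 (0.887 to 1.10). The C1q values of Sema6d lay between untreated array 1 and the other two. Without that array the log2 fold changes were 0.019, 0.016 and 0.070 for Sema6b, Sema6c and Sema6d, so the common sign turned. The median over all tested probe sets rose there too, from -0.019 to 0.00043. With array weights the 3 genes were also above 0, at 0.0028, 0.039 and 0.033.

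Sema7a is held at the membrane by a lipid anchor and acts through Plxnc1 and the integrin subunit encoded by Itgb1. It read 1958, 1914 and 1811 untreated and 1868, 1920.4 and 1859.5 after C1q, at a fold change of 0.994 (0.927 to 1.07). All C1q values lay inside the untreated range. Itgb1 read 1512 ± 51.0 and 1478 ± 27.8 (SD, n = 3 each).

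**Figure D2:**
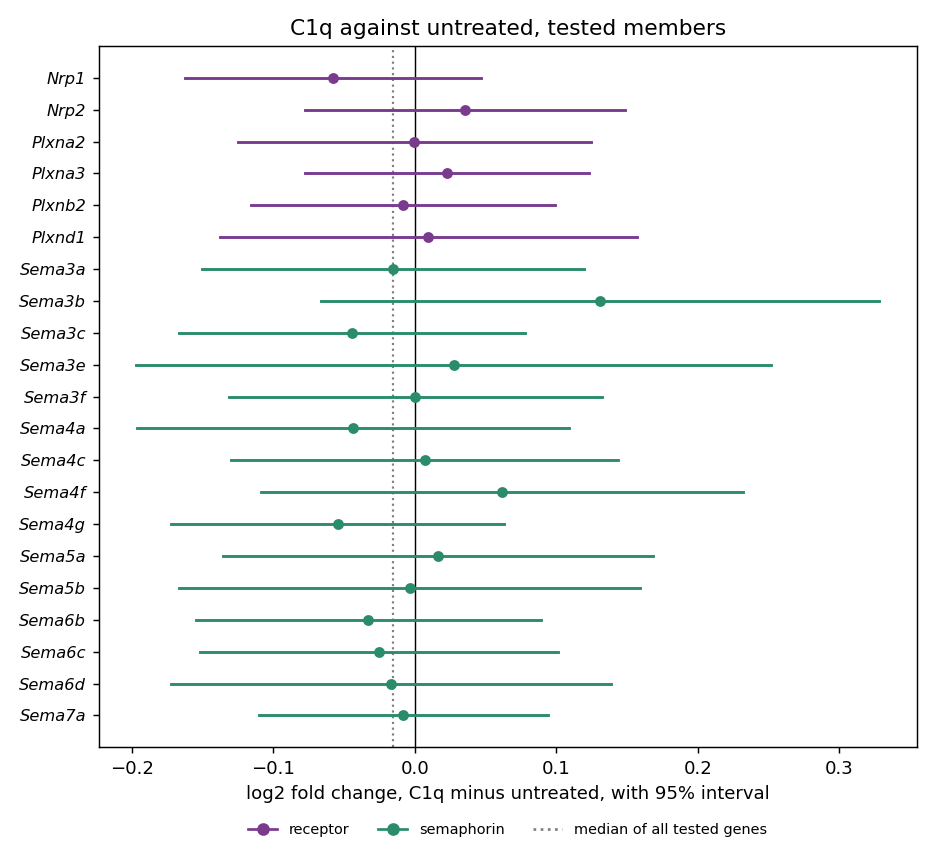
Log2 fold change, C1q minus untreated, of the 21 tested members with 95% intervals from limma, receptors in purple and semaphorins in green, beside the median of all tested genes (dotted). Every interval includes 0, and Sema3b has the highest estimate, at 0.13.

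By role, log2 fold changes were above 0 for 3 of 6 receptors and 6 of 15 semaphorins, with medians of 0.0047 and -0.0080. For all 21 members 9 were above 0, or 12 below, with a median of -0.0036, against 37.0% above 0 and a median of -0.016 over all tested genes. The balance of signs changed with scaling, to 14 above and 7 below after quantile normalization and 16 and 5 after median centring. It also rested on single arrays, with 16 above 0 without untreated array 1, 14 without C1q array 3, and 6 without untreated array 2 or C1q array 2. All tested probe sets moved the same way, with 63.3% below 0 in the main fit. That share was 49.7% without untreated array 1 and 56.4% without C1q array 3. It was 68.9% without untreated array 2 and 67.0% without C1q array 2. Over the 17 settings 7 tested members had 1 sign throughout, Nrp1, Sema3c, Sema4a and Sema4g lower and Nrp2, Sema3b and Sema4f higher, but their sizes moved with single arrays. Settings that change only the filter, variance model or block leave these estimates as they are, so a kept sign there carries no weight. Nrp2 was at 0.00014 log2 without untreated array 2 and at 0.067 without untreated array 1. Sema3c ran from -0.084 without untreated array 2 to -0.0066 without C1q array 3, and Nrp1 from -0.080 without untreated array 2 to -0.028 without untreated array 1. Sema4a ran from -0.085 without C1q array 1 to -0.018 without C1q array 3, Sema4g from -0.076 without C1q array 2 to -0.025 without C1q array 1, and Sema4f from 0.023 without untreated array 2 to 0.11 without untreated array 1. No member was called in any setting that tested it, and the smallest adjusted p was 0.296, for Sema5b with array weights.

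**Figure D3:**
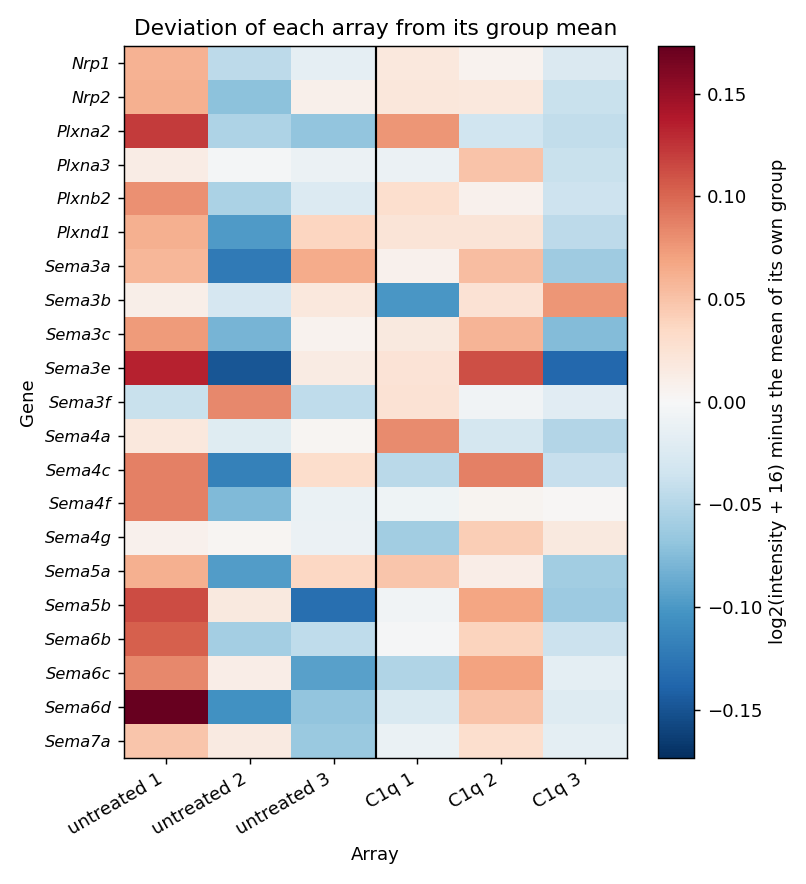
Deviation of log2(intensity + 16) of each array from the mean of its own group, for the 21 tested members (rows) on 6 arrays (columns). Untreated array 1 is mostly red, with 18 of 21 members at their highest untreated value there, and C1q array 3 is mostly blue, with 15 at their lowest C1q value.

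Members deviated together within a group. Untreated array 1 held the highest untreated value for 18 of 21 members and untreated array 2 the lowest for 14. C1q array 2 held the highest C1q value for 12 and C1q array 3 the lowest for 15. The median deviations of the members on untreated arrays 1, 2 and 3 were 0.062, -0.055 and -0.0099 log2, beside 0.050, -0.044 and -0.0044 over all tested genes. On C1q arrays 1 to 3 they were 0.0075, 0.029 and -0.038, beside -0.00075, 0.025 and -0.023. The order of the arrays by these medians was thus the one seen over all tested genes. Single members departed from it. The highest untreated value was on array 2 for Sema3f and on array 3 for 2 members, Sema3a and Sema3b. The lowest was on untreated array 3 for 7 members. The median residual SD of the members was 0.067 log2, against 0.074 for all tested genes.

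Upstream of their start sites, the genes above and below the filter were also described by sequence, as RefSeq gives it for the GRCr8 assembly. Windows of 250 bases were found for 18 of the 23 genes, and not used here for Sema3a, Sema3b, Sema3f, Sema4g and Sema5a. The number of CpG dinucleotides is given because vertebrate promoters fall broadly into CpG-rich and CpG-poor kinds. The 6 tested receptors had 13 to 37 CpGs, while Plxnb3 and Sema3d, both below the filter, had 2 and 4. Low CpG number did not separate the members, since Sema3c and Sema6c had 0 and lay above the filter. At least 10 CpGs were present in 11 of 16 members above the filter, or 68.8%, against 76.8% of the windows of all genes above the filter and 19.4% of those below. Shown 5′ to 3′ on the gene's strand with each CpG in capitals are 2 CpG-rich receptor windows, Nrp1 (chr19:73256307-73256556, + strand) and Plxna2 (chr13:108691280-108691529, + strand), and 2 CpG-poor ones. The latter are Plxnb3 (chrX:156646624-156646873, + strand), below the filter, and Sema3c (chr4:18699628-18699877, - strand), above it.
Nrp1: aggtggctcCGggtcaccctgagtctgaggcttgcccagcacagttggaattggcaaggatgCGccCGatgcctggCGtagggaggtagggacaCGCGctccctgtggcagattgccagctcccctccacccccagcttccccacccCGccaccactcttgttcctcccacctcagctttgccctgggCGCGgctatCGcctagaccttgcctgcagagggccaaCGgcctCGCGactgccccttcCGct
Plxna2: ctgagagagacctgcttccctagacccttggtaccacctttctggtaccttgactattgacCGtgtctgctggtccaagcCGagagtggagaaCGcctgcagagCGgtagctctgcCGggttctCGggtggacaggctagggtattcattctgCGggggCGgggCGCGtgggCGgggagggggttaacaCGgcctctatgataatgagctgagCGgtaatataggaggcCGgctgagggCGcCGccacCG
Plxnb3: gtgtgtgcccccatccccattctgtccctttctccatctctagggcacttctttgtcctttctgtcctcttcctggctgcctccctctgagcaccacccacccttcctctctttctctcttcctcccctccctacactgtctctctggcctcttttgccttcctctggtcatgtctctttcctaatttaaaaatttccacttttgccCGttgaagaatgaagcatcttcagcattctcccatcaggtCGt
Sema3c: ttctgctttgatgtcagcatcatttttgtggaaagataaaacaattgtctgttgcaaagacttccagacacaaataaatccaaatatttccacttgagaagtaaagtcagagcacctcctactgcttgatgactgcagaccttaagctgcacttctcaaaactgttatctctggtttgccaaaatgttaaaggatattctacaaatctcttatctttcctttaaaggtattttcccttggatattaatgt
The Nrp1 window holds 14 CpGs and the Plxna2 window 17, while the Plxnb3 window holds 2 and the Sema3c window 0.

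On either strand, the GC box GGGCGG, which itself holds a CpG, occurred in 9 of the 16 windows above the filter, or 56.2%, against 59.5% of windows of all genes above it. The TATA box TATAAA occurred in 0 of 16, against 6.30%. The cAMP response element TGACGTCA also occurred in 0, against 3.00%, and the E-box CACGTG in 1, that of Sema3e, against 8.42%, and both of these motifs also hold a CpG. These are matches of letters in one annotated window per gene.

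The genes that carry semaphorin signals inside the cell were summarised from a list of 72 named genes, of which 62 were matched and 53 tested. None passed in limma, none had an unadjusted p under 0.05, 23 log2 fold changes were above 0 and 30 below, and the median was -0.0098. Over all tested genes 37.0% were above 0, with a median of -0.016. Among the CRMPs, cytosolic proteins that relay Sema3a to microtubules, Dpysl2 read 11361 ± 342 untreated and 11282 ± 214 after C1q, and Crmp1 read 7459 ± 381 and 7411 ± 208 (SD, n = 3 each). Dpysl3 had a fold change of 0.990 (0.923 to 1.06). The kinases that act on this route gave fold changes of 0.979 for Fyn (0.910 to 1.05) and 1.00 for Cdk5 (0.932 to 1.07). All of these intervals spanned 1.

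L1cam, an adhesion molecule that associates with Nrp1, read 2399 ± 149 untreated and 2474 ± 32.7 after C1q, and Nrcam, which associates with Nrp2, 2476 ± 179 and 2487 ± 107 (SD, n = 3 each). Gipc1, an adaptor that binds the neuropilin tail, had a fold change of 0.998 (0.929 to 1.07). Farp2, an exchange factor for Rac that binds class A plexins, had one of 1.03 (0.910 to 1.16). Mical1, an oxidoreductase that takes actin filaments apart below plexins, had one of 1.02 (0.874 to 1.19), and the GTPase gene Rnd1 one of 0.957 (0.839 to 1.09). Chl1 was not analysed here.

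The largest block of the list, the exchange factors, GTPases and their regulators, had 6 of 21 log2 fold changes above 0 and 15 below, with a median of -0.038 and a range of -0.11 to 0.066. The 9 tested co-receptors and adhesion partners had 7 above and 2 below, with a median of 0.034. Kinases had 3 above and 4 below, and CRMPs and oxidoreductases the same. Beside these counts, 37.0% of all tested genes were above 0. The lists were read under the main setting only. Over all tested probe sets the share below 0 fell with scaling, from 63.3% to 49.2% after quantile normalization and 44.6% after median centring. Of the growth factors that also bind neuropilins, Vegfa read 487 ± 33.5 untreated and 481 ± 26.9 after C1q, and Vegfc 152 ± 13.8 and 154 ± 6.16 (SD, n = 3 each). No list was tested as a group.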

How the data were processed

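Biotin-labelled cRNA from total RNA was hybridised to one-colour Affymetrix arrays, per the labels. The authors deposited a table of 29215 probe sets with 1 intensity per array on a linear scale, with summarisation and normalization not given in the sources used here. Platform annotation named exactly 1 gene for 15310 probe sets, several for 323 and none for 13582. Matching gene IDs to RefSeq for GRCr8 changed 0 symbols. Each gene was read from its brightest single-gene probe set.

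Values were used as deposited, as log2(intensity + 16), because array medians differed by 0.070 at most. These medians cover all probe sets and need not follow the tested genes. Untreated array 2 had the highest, 7.42, but over tested genes the lowest median deviation of the untreated arrays, -0.044 log2. Median centring therefore lowered its tested genes further. The brightest 60%, 17529 probe sets and 9652 genes, entered limma 3.58.1 (lmFit, then eBayes with trend; R 4.3.3), with Benjamini-Hochberg adjustment. Fold changes are on the log2(intensity + 16) scale and understate changes of dim genes. The number of arrays limits the precision. Members outside the filter have values and intervals from a fit of all probe sets. Named genes were all members and 12 pathway genes chosen by name, of which 11 were matched. Itgb1, Vegfa, Vegfc and the pathway genes below the filter were named after their values were seen. The members and lists were chosen with earlier results of these data known.

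The fit was tested on the values of these arrays, with known changes added on the C1q arrays to 200 of 17529 probe sets at once. It recovered 18% of changes of 0.25 log2, 88% of 0.5 and 100% of 0.75 and 1. It also called 4 probe sets to which no change had been added. A lone change would be recovered less often. Alternatives changed the scaling, pseudocount, filter, variance model, probe set per gene and array weights, added a block for the replicate number, or left out each array.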

Additional observations from a re-analysis of the deposited data

How the results depend on the processing

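No member was called in any of the 17 settings tried, of which the brightest 40% tested 18 of the 21. Counts of called probe sets were 0 higher and 0 lower, apart from 0 and 1 without the filter, 130 and 317 with array weights, 9 and 0 with the replicate block, and 0 to 28 higher and 0 to 10 lower when each array was left out in turn, with every such call made without untreated array 2. The fit with weights leaned on untreated array 3, weighted 5.51 against 0.362 and 0.335 for the other untreated arrays. Same-numbered arrays did not deviate together, with correlations of 0.014, -0.45 and -0.13 for numbers 1, 2 and 3, and none matched its own number best. With 3 arrays per group these correlations cannot show whether a number marks a shared culture. The numbers were not taken as pairs because the labels do not say that they mark one.

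Of the 21 tested members, 9 had a higher mean, against 14 with quantile normalization, 16 with median centring and 6 to 16 with each array left out. The members' median log2 fold change, -0.0036, ran from -0.036 without untreated array 2 to 0.031 without untreated array 1, so its sign turned. Over all tested probe sets the median ran from -0.035 to 0.00043 in the same fits, and the share below 0 from 68.9% to 49.7%. Signs of values near 0 turned without any call, and the cause was not tested. With quantile normalization the log2 fold changes became 0.015 for Plxna2, 0.012 for Plxnb2, 0.0040 for Sema3a, 0.014 for Sema5b and 0.011 for Sema7a. With median centring they became 0.026 for Plxna2, 0.018 for Plxnb2, 0.011 for Sema3a, 0.023 for Sema5b, 0.0016 for Sema6c, 0.0099 for Sema6d and 0.019 for Sema7a. With array weights they became 0.074 for Plxna2, 0.018 for Plxnb2, -0.017 for Plxnd1, -0.031 for Sema4c, -0.0022 for Sema5a, 0.10 for Sema5b, 0.0028 for Sema6b, 0.039 for Sema6c, 0.033 for Sema6d and 0.042 for Sema7a. The mean of both probe sets gave -0.056 for Sema4c.

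With each array left out, log2 fold changes ran from -0.039 to 0.061 for Plxna2, -0.0019 to 0.042 for Plxna3, -0.036 to 0.031 for Plxnb2, -0.040 to 0.040 for Plxnd1, -0.077 to 0.017 for Sema3a, -0.046 to 0.095 for Sema3e and -0.022 to 0.042 for Sema3f. They ran from -0.051 to 0.050 for Sema4c, -0.032 to 0.047 for Sema5a, -0.069 to 0.053 for Sema5b, -0.062 to 0.019 for Sema6b, -0.072 to 0.016 for Sema6c, -0.069 to 0.070 for Sema6d and -0.040 to 0.016 for Sema7a. Signal over background is unknown for every member.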

Other observations

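Several partners of the semaphorin system lay below the filter intensity of 94.4 and entered no test. Untreated and C1q means were 89.1 and 88.0 for Kdr, the VEGF receptor that pairs with Nrp1, and 56.8 and 55.5 for Flt4, the VEGF-C receptor. They were 56.2 and 60.5 for Mst1r, a receptor kinase that associates with class B plexins, and 79.8 and 67.3 for Fes, a kinase described below plexins. Cd72, a lymphocyte receptor for Sema4d, read 66.6 and 66.7, and Timd2, described as a receptor for Sema4a, read 17.2 and 17.1.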
